A study of Mus musculus with 8 samples.

Results

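Variable (V) genes of the T cell receptor alpha and beta chains were examined in T cells from brain tumors of mice with ZFTA-RELA ependymoma, a tumor of the central nervous system. The genes were all those whose symbol starts with Trav or Trbv followed by a number, which gave 165 of the 33696 genes in the files, 130 Trav and 35 Trbv. Tumor-bearing mice, of the genotype given as NestinCreERT2;Fus1;RFPTdT, were randomised at 3 weeks of age to vehicle IgG, a control antibody that the study describes at the same dose, or to mavrilimumab at 5 mg/kg, an antibody against the GM-CSF receptor alpha chain. Either antibody was given as a single intrathecal injection. In this line Cre recombinase is driven by the Nestin promoter, which is active in neural progenitors, and the fusion allele also carries luciferase. The labels put the mice at 6 to 8 weeks of age when tumor or brain tissue was taken, whereas the study describes the treated mice as at recurrence or endpoint. Cells were stained for the leukocyte marker CD45 and the erythroid marker Ter119 and sorted before droplet sequencing. The study pooled several tumors per group, how many entered each library is not in the sources used here, and p-values between groups therefore measure the spread between 2 libraries a group.

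Each T cell assembles its receptor from 1 alpha and 1 beta V gene, which are joined to shorter J segments (with a D segment in beta) by recombination during development. The V gene encodes the leader and the first loops that contact antigen, called CDR1 and CDR2, and the CDR3 loop is made at the joint. Cells that share a CDR3 sequence are therefore often descendants of 1 cell, but the same sequence of 1 chain can also arise in separate cells. Clones are named further on by their beta CDR3. CD8 T cells recognise peptides on MHC class I and CD4 T cells, among them the Foxp3-expressing regulatory T (Treg) cells, on MHC class II, and V genes are known to be used unequally by CD4 and CD8 T cells. Many mouse Trav genes exist in near-identical copies, marked d or n in the symbol.

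T cells were barcodes with at least 1000 unique molecular identifiers (UMIs, counts of single RNA molecules), 200 to 6000 genes, at most 10% mitochondrial UMIs and at least 2 UMIs of Cd3d, Cd3e and Cd3g, the receptor's signaling subunits. They numbered 235, 5028, 5490 and 2920 in the libraries labelled, in this order, vehicle IgG 1, vehicle IgG 2, mavrilimumab 1 and mavrilimumab 2. CD8 T cells (at least 2 UMIs of Cd8a and Cd8b1 and none of Cd4) numbered 68, 2047, 1926 and 1863 in the same order, other CD4 T cells (Cd4 without Foxp3) 98, 139, 1507 and 417, and Treg cells (a Foxp3 UMI) 15, 37, 831 and 88. The files held from 24354457 to 148657643 UMIs per library. Of the T cell barcodes 17 were found in more than 1 library.

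Some libraries limit every result. In vehicle IgG 1 by label, 67 of 68 CD8 T cells had 3 or more UMIs of microglial, myeloid, B cell or neural markers. In the other libraries this held for 1027 of 2047 (vehicle IgG 2), 1125 of 1926 (mavrilimumab 1) and 1756 of 1863 (mavrilimumab 2). The part of these markers in the V gene results was not tested beyond leaving such cells out. Receptor (TCR) files were read for 3 libraries as a second readout of the same cells. In all 3 the inner sample field names the other treatment than the label. Of the T cells in the expression library labelled mavrilimumab 1, 86.8% were found in the TCR file labelled mavrilimumab 2 and 0.0364% in the file of its own number. For the expression library labelled mavrilimumab 2, 84.7% were found in the TCR file labelled mavrilimumab 1, and 76.6% of those labelled vehicle IgG 1 matched the TCR file of their own label. Contigs (assembled receptor sequences) are therefore given under the expression library whose barcodes they share, and every direction between treatments follows the labels of the expression libraries. No receptor data of vehicle IgG 2 were used here.

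V genes called between CD8 and other CD4 T cells, chosen after their values were seen, are shown by their CDR1 to CDR2 stretch, read from the deposited contigs, with both loops in capitals. Higher in CD8 T cells by expression UMIs, as given further on, were the following Trbv genes.
TRBV12-2: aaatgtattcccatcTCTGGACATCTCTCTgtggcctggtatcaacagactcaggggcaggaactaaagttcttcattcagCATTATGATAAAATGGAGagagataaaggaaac
TRBV12-1: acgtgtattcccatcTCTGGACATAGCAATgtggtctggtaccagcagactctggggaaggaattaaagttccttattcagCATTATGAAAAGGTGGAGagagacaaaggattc
TRBV29: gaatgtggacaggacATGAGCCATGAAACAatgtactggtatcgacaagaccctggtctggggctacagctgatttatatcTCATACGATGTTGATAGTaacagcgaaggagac
TRBV14: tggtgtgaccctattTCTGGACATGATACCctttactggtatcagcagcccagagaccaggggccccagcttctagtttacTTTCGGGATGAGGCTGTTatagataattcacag
Lower in CD8 T cells were the following.
TRBV20: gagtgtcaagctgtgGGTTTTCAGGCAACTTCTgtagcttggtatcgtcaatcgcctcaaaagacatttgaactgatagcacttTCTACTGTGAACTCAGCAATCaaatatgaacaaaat
TRBV26: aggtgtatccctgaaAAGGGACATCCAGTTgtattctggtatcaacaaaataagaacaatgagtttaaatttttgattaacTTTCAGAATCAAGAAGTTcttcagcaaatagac
TRBV31: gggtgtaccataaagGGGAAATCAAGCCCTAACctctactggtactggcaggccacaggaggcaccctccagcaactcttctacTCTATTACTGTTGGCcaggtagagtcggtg
TRBV13-2: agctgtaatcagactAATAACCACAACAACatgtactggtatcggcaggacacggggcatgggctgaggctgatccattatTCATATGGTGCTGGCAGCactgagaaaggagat
TRBV12-1 and TRBV12-2 differed at 20 of 114 bases of this stretch, so that both can be told apart. Among alpha genes, the pair Trav16 and Trav16n was higher in CD8 T cells and the Trav14 family lower.
TRAV16: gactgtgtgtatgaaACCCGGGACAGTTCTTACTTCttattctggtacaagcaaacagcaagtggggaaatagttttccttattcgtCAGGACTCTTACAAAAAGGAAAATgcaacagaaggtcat
TRAV16N: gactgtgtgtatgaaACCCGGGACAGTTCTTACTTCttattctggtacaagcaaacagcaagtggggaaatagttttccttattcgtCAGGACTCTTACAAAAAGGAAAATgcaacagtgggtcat
TRAV14-2: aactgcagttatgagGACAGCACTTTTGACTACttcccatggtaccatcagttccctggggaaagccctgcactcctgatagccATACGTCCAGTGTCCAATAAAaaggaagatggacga
TRAV14D-3-DV8: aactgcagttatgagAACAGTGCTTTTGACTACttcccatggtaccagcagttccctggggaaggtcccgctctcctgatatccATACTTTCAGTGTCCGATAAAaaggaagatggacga
The TRAV16 and TRAV16N stretches have identical loops and differ only outside them, and their counts are uncertain to the extent that reads of one could be counted for the other.

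Most V genes were detected in T cells, at levels far above those of microglia-gated cells. At least 1 UMI in T cells was found for 25 of 35 Trbv genes (23 in all 4 libraries) and for 88 of 130 Trav genes (67 in all 4). The Trbv genes at 0 were Trbv6 to Trbv11, Trbv18, Trbv25, Trbv27 and Trbv28. Trbv genes gave 100257 UMIs and Trav genes 42027, of which 85.9% fell on genes with at least 1 near-identical copy. V genes made up 0.186%, 0.0871%, 0.221% and 0.181% of all T cell UMIs in the order vehicle IgG 1, vehicle IgG 2, mavrilimumab 1 and mavrilimumab 2, a mean of 0.169% ± 0.0574 (SD, n = 4). The library labelled vehicle IgG 2 was the lowest, and 2805 of its 5028 T cells had no Cd4 or Foxp3 UMI and fewer than 2 of Cd8a and Cd8b1. In those unclassed cells Trbv genes had 3.43 UMIs per 10000, against 10.3 in CD8 T cells of the same library. In CD8 T cells of the other libraries (vehicle IgG 1, mavrilimumab 1 and mavrilimumab 2 by label) Trbv UMIs were 14.3, 16.7 and 13.6 per 10000. Other CD4 T cells had 17.8, 10.0, 17.4 and 15.2 in the order of the 4 libraries above, and microglia-gated cells had 0.00312, 0.0156, 0.0366 and 0.0424.

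A Trbv UMI was found in 95.6%, 84.6%, 95.4% and 97.3% of CD8 T cells in the order vehicle IgG 1 and 2 and mavrilimumab 1 and 2, whose median depths were 14678.5, 2692, 4612.5 and 12488 UMIs. In microglia-gated cells, which should carry no receptor, the share was 0.415%, 0.816%, 3.24% and 3.54% at median depths of 11485, 5967, 7364.5 and 7294 UMIs. A Trav UMI was found in 70.6%, 55.4%, 73.4% and 81.5% of CD8 T cells. Free V gene RNA was most abundant in the library labelled mavrilimumab 1, where barcodes with at most 100 UMIs had 10.7 Trbv UMIs per 10000, against 0.597 to 4.16 in the other 3 libraries.

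Over all T cells, no single V gene dominated, and the 6 Trbv genes with the highest mean share took between 7.30% and 9.67% of Trbv UMIs each. Trbv1 (ENSMUSG00000076461) had 10.9%, 9.39%, 9.28% and 9.11% in the 4 libraries, in the order above. It was the most even of the leading genes. Trbv16 (ENSMUSG00000076473) had 4.03%, 7.56%, 10.4% and 7.20%, and Trbv12-2 (ENSMUSG00000094525) had 4.83%, 6.55%, 10.3% and 7.55%, both highest in the library labelled mavrilimumab 1. Trbv13-2, Trbv13-1 and Trbv3 had means of 8.51%, 7.93% and 7.48%. Among Trav genes, by UMIs of each symbol, Trav3-3 led with a mean of 5.13%, followed by Trav4-4-dv10 (4.80%), Trav7-5 (4.17%), Trav12-2 (4.13%), Trav13-1 (3.45%) and Trav7-4 (3.40%). This order depends on the count. By cells, with near-identical copies joined, Trav16 led with a mean of 7.67%, followed by Trav14-3 (5.52%), and Trav3-3 had 4.31%. Trav3-3 ranged from 2.28% to 10.2% between the vehicle IgG libraries, so that replicates of 1 group differed more than the group means of 6.26% and 4.00%.

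Within a class, the leading gene differed between libraries. In CD8 T cells it was Trbv1 (11.3%), Trbv13-1 (8.43%), Trbv12-2 (19.6%) and Trbv15 (10.2%) in the order above, and for alpha Trav8n-2 (11.3%), Trav3-3 (12.4%), Trav16 (9.78%) and Trav12-2 (5.89%). In other CD4 T cells it was Trbv13-2 (12%), Trbv1 (19%), Trbv19 (11.3%) and Trbv1 (12.4%), with Trav4-4-dv10, Trav14-2, Trav7-5 and Trav14-2 for alpha. In Treg cells Trbv1 led in 3 libraries with 22.8%, 19.2% and 16.4%, and Trbv16 led with 21.5% in that labelled mavrilimumab 1. The Trbv1 UMIs behind these shares came from 2, 3 and 7 cells, and counted by cells Trbv1 had 10.7% against 17.9% for Trbv13-2 in vehicle IgG 2 and 8.54% against 14.6% for Trbv3 in mavrilimumab 2. By UMIs Trbv1 thus led in several libraries and classes while the other leaders did so in 1 or 2, and some shares rested on few cells. The 11.3% of Trbv1 in CD8 T cells of the library labelled vehicle IgG 1 came from 8 cells with this gene.

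**Figure D1:**
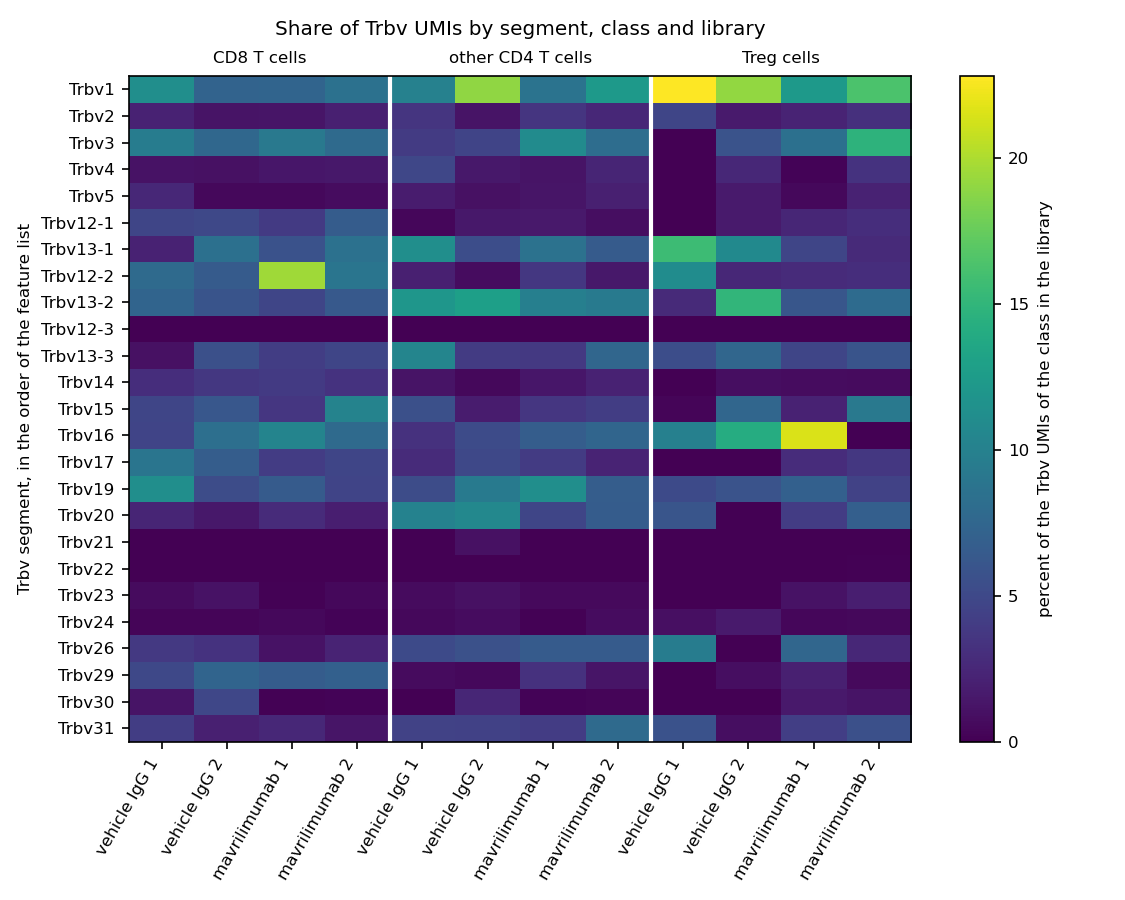
Share of the Trbv UMIs of each class (percent, color) by gene (rows) and library (columns), without replicate error since each column is 1 library. The brightest CD8 cell is Trbv12-2 in the library labelled mavrilimumab 1 (19.6%) and the brightest Treg cells are Trbv1 in that labelled vehicle IgG 1 (22.8%, from 2 cells) and Trbv16 in that labelled mavrilimumab 1 (21.5%).

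CD8 T cells were compared with other CD4 T cells within the 4 libraries to ask which V genes are used unequally by the lineages. Of 85 V genes tested, 24 were called at a false discovery rate of 0.05, that is 28.2%, against 9.73% of all 13940 genes. Of these 10 were higher in CD8 T cells (all genes, 4.89%) and 14 lower (all genes, 4.84%). The Wald test of DESeq2 called 18 (all genes 8.79%). Values are UMIs summed per library and class and scaled to equal totals by edgeR (CPM, with TMM scaling), given in the order vehicle IgG 1, vehicle IgG 2, mavrilimumab 1 and mavrilimumab 2, and adjusted p-values are from edgeR's quasi-likelihood test with Benjamini-Hochberg adjustment over all genes tested. A lower sum for a gene can come from fewer cells that use it or from less RNA per cell, which sums cannot tell apart.

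Trbv12-2 and Trbv12-1, which encode closely related beta V regions, rose most among beta genes. Trbv12-2 was at 110, 66.1, 343 and 140 CPM in CD8 T cells and at 33.5, 6.68, 63.2 and 22.6 CPM in other CD4 T cells (log2 difference 2.34, SE 0.15, adjusted p = 1.92e-06). Trbv12-1 was at 67.0, 49.8, 68.3 and 105 CPM against 7.0, 13.4, 27.2 and 13.7 CPM (2.13, SE 0.26, adjusted p = 0.000351). Each was higher in CD8 T cells in 4 of 4 libraries, and for neither did the values of the classes overlap across libraries. For Trbv12-2 they came close, with 66.1 CPM in CD8 T cells of vehicle IgG 2 and 63.2 CPM in other CD4 T cells of mavrilimumab 1. Trbv29 was at 68.9, 74.4, 117 and 111 CPM against 11.7, 4.45, 55.7 and 20.1 CPM (1.88, SE 0.26, adjusted p = 0.00077). Trbv14 had a log2 difference of 1.13 (SE 0.22, adjusted p = 0.0068) and Trbv17 of 0.69 (SE 0.19, adjusted p = 0.0412), both higher in 4 of 4 libraries. For Trbv17 the library labelled mavrilimumab 1 was nearly level, with 70.8 against 67.4 CPM.

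Trbv20 fell most among beta genes. It was at 32.5, 15.2, 48.5 and 29.6 CPM in CD8 T cells and at 166, 95.7, 82.1 and 106 CPM in other CD4 T cells (log2 difference -1.78, SE 0.24, adjusted p = 0.000643). Trbv26 was at 53.2, 33.9, 20.0 and 35.3 CPM against 84.8, 51.2, 112 and 104 CPM (-1.58, SE 0.25, adjusted p = 0.00221). Trbv13-2 (-0.90, SE 0.10, adjusted p = 0.000201) and Trbv31 (-1.34, SE 0.33, adjusted p = 0.025) were also lower in 4 of 4 libraries. The fall of Trbv31 ranged widely, from 58.1 against 73.9 CPM (vehicle IgG 1) to 20.0 against 125 CPM (mavrilimumab 2). Trbv5 (-1.07, adjusted p = 0.0412) and Trbv2 (-0.87, adjusted p = 0.0207) passed the test with 1 library of 4 in the other direction.

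Among alpha genes, 2 of 3 tested members of the Trav16 family rose and every tested member of the Trav14 family fell in CD8 T cells. Trav16 was at 21.7, 8.73, 60.7 and 20.9 CPM in CD8 T cells and at 3.11, 0, 8.09 and 3.07 CPM in other CD4 T cells (log2 difference 2.82, SE 0.24, adjusted p = 1.51e-05). Its near copy Trav16n rose less (1.28, SE 0.27, adjusted p = 0.011). Trav8n-2 (1.75), Trav12-2 (1.19) and Trav6-1 (2.96) were also higher in 4 of 4 libraries. Trav8n-2 lost its call by the Wald test of DESeq2, with CD8-positive cells left out of other CD4 T cells, and without vehicle IgG 2 or mavrilimumab 2. Trav6-1 lost it without cells that carry markers of another type and without cells that had 2 Trbv segments. Trav6-1 was scarce, at 2.04 to 8.17 CPM in CD8 T cells and at 0 in other CD4 T cells of both libraries labelled vehicle IgG, so that its fitted size depends on the prior count.

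The 5 Trav14 genes tested were called lower and were lower in 4 of 4 libraries each, with log2 differences of -2.38 for Trav14d-3-dv8, -1.82 for Trav14-2, -1.55 for Trav14-3, -1.54 for Trav14-1 and -1.04 for Trav14n-3. With cells that carry markers of another type left out, all 5 were fitted lower but only Trav14-2 kept its call. Trav14-3 also lost its call without cells that had 2 Trbv segments (-0.98, edgeR adjusted p = 0.189), and Trav14n-3 without mavrilimumab 1 (-0.90, edgeR adjusted p = 0.0727). Trav14-2 was at 0, 3.10, 7.84 and 19.3 CPM in CD8 T cells and at 15.6, 28.9, 25.7 and 35.7 CPM in other CD4 T cells (adjusted p = 0.0084). Its CD8 values in the libraries labelled mavrilimumab were the higher ones, and only the value of 19.3 CPM reached the range of the other CD4 T cells. Trav6-5, Trav12-3 and Trav7-4 made up the remaining calls lower in CD8 T cells, Trav6-5 with 1 library of 4 in the other direction. Trav6-5 also lost its call without vehicle IgG 1, without mavrilimumab 1 and without mavrilimumab 2.

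**Figure D2:**
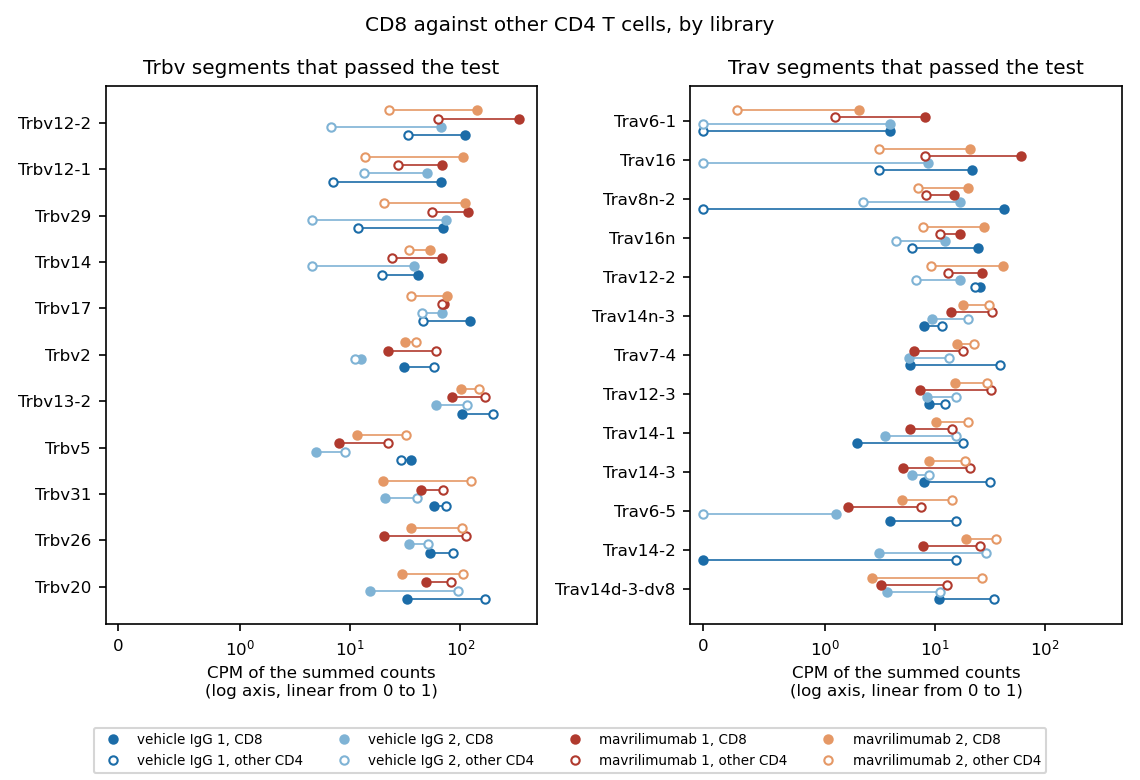
CPM of summed counts (horizontal, log axis that is linear from 0 to 1) in CD8 T cells (filled) and other CD4 T cells (open) of each library (color, 1 line each) for the 11 Trbv and 13 Trav genes past the test. For Trbv12-2, Trbv12-1 and Trbv29 all 4 filled points lie right of their open partners, and for Trbv20 and Trbv26 all 4 lie left.

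The same comparison was made over distinct receptors, which counts each CDR3 nucleotide sequence of a library and class once and so does not depend on UMIs per cell or on the size of a clone. No test was made of these shares. The receptors come from the same cells in which the genes were called, so that a like direction is no independent support. Trbv12-2 accounted for 4 of 60, 21 of 899 and 107 of 1324 distinct beta CDR3 sequences of CD8 T cells in vehicle IgG 1, mavrilimumab 1 and mavrilimumab 2 by label. In other CD4 T cells it accounted for 0 of 91, 7 of 952 and 0 of 381. Trbv12-2 was thus more frequent among CD8 receptors in 3 of 3 libraries, with shares of 6.67%, 2.34% and 8.08%.

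Trbv12-1 made up 5.00%, 6.01% and 9.06% of CD8 receptors and 0%, 1.79% and 0.262% of other CD4 receptors. Trbv20 made up 3.33%, 2.56% and 2.49% against 14.3%, 5.57% and 6.30%. For Trav16 the shares were 3.64%, 4.67% and 3.68% of CD8 against 0%, 0.429% and 1.10% of other CD4 receptors. All 5 Trbv genes called higher in CD8 T cells from expression UMIs were more frequent among CD8 receptors in 3 of 3 libraries (33.3% of all 21 Trbv segments were), and 5 of 6 called lower were less frequent in 3 of 3 (28.6% of all). Both rates of all segments include the called genes, which were chosen in the same cells. The exception, Trbv5, made up 10.0% of CD8 and 5.49% of other CD4 receptors in the library labelled vehicle IgG 1. Of the called Trav genes, 4 of 5 higher and 5 of 8 lower kept their direction in 3 of 3 libraries, against 12.6% and 21.8% of the 87 Trav segments, the called ones included.

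**Figure D3:**
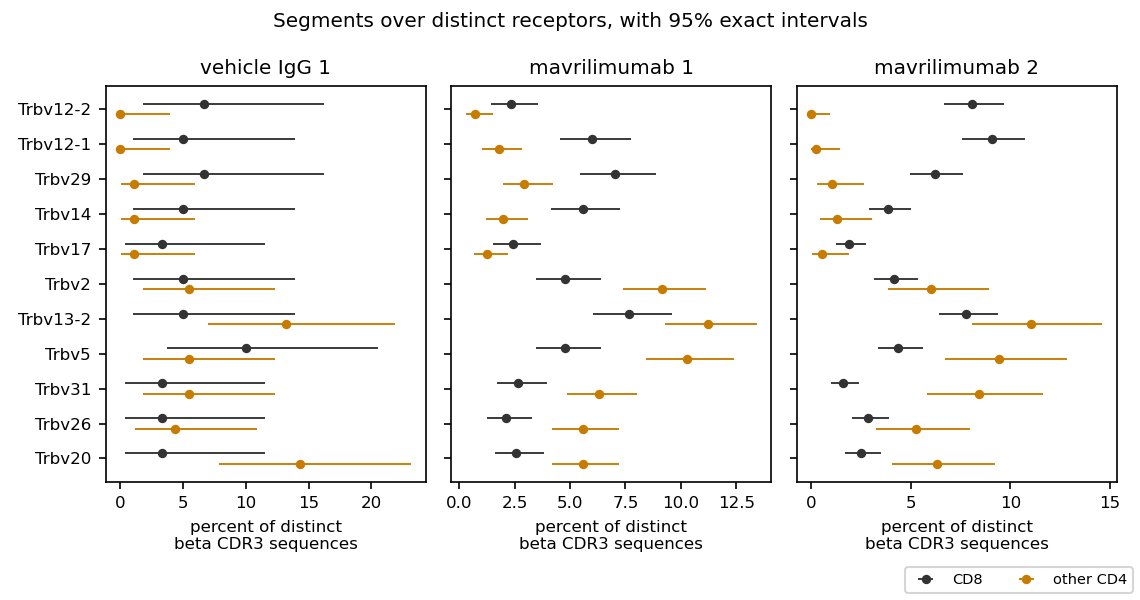
Share of distinct beta CDR3 sequences (percent, with 95% exact binomial intervals, which cover counting error only) that use each Trbv gene called between the classes, in CD8 (dark) and other CD4 (orange) T cells of 3 libraries. In the library labelled mavrilimumab 2 Trbv12-2 stands at 8.08% of CD8 and 0% of other CD4 receptors, and the intervals of the library labelled vehicle IgG 1 are the widest.

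Treg cells were compared with each of the other classes in 3 libraries, since the library labelled vehicle IgG 1 held 15 Treg cells. Ikzf2 and Ctla4, found in most Treg cells here, also had UMIs in other CD4 T cells. In the order vehicle IgG 2, mavrilimumab 1 and mavrilimumab 2 these were 18.0%, 45.1% and 14.4% of cells for Ikzf2 and 21.6%, 34.2% and 20.1% for Ctla4. Il2ra, a further Treg marker, was rarer there, in 9.35%, 6.57% and 3.36% of other CD4 T cells. In Treg cells it was found in 59.5%, 43.8% and 76.1%. Whether that class held Treg cells without a Foxp3 UMI was not tested. Against other CD4 T cells 6 of 69 V genes were called, 0 higher and 6 lower, against 3.09% and 2.32% of all 11724 genes and 5.41% in either direction. At an unadjusted p under 0.05 there were 19 (all genes 15.4%), and the Wald test of DESeq2 called 2 of 69, or 2.90%, near the 2.86% of all genes. Calls higher in Treg cells appeared in other settings, with 4 higher and 7 lower without mavrilimumab 2 (all genes 4.27%), 3 and 10 without the filter on low counts (all genes 4.72%), and 2 and 2 without cells that had 2 Trbv segments (6.06% of V genes, all genes 4.42%). Trav14n-3 was at 0, 4.97 and 4.96 CPM in Treg cells and at 21.3, 35.1 and 32.8 CPM in other CD4 T cells, in the order vehicle IgG 2, mavrilimumab 1 and mavrilimumab 2 (log2 difference -2.81, SE 0.35, adjusted p = 8.17e-05 by edgeR). Its values in the classes did not overlap. By cells, with near-identical copies joined as Trav14-3, the classes did overlap across libraries. That share was 0%, 1.57% and 11.9% of Treg cells with a called Trav gene. In other CD4 T cells it was 12.3%, 6.92% and 12.1%, in the same order. Trbv19 was at 46.7, 112 and 71.9 CPM against 89.9, 204 and 112 CPM (-0.77, SE 0.15, adjusted p = 0.00537). Trbv19 lost its call without cells that had 2 Trbv segments (-0.57) and without mavrilimumab 1 (-0.67). Trav12-3, Trav10, Trbv14 and Trbv13-1 passed with 1 library of 3 in the other direction, that labelled vehicle IgG 2, which held 37 Treg cells. Trbv16, the leading Treg gene of the library labelled mavrilimumab 1, was at 114, 342 and 0 CPM against 49.7, 122 and 125 CPM (adjusted p = 0.991), with no UMI in the 88 Treg cells of the library labelled mavrilimumab 2.

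Against CD8 T cells 22 of 81 V genes were called in Treg cells, 9 higher (all genes 7.66%) and 13 lower (all genes 7.34%), which is 27.2% against 15.0% of all 13373 genes. At an unadjusted p under 0.05 there were 44, that is 54.3% against 26.2% of all genes. The Wald test of DESeq2 called 7, 3 higher and 4 lower, and these 8.64% did not exceed the 8.97% of all genes. Trbv12-2 was at 18.8, 43.8 and 45.5 CPM in Treg cells and at 67.3, 347 and 143 CPM in CD8 T cells (log2 difference -2.41, SE 0.24, adjusted p = 1.73e-06 by edgeR). Trbv14 (-2.39, SE 0.25) and Trbv29 (-2.33, SE 0.24) were lower by a like amount in 3 of 3 libraries. Trbv1 was higher, at 144, 188 and 251 CPM against 74.8, 130 and 137 CPM (0.79, SE 0.14, adjusted p = 0.00073), and the values of the classes did not overlap. Both comparisons share the Treg samples, and the CD8 samples are those of the preceding comparison.

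Mavrilimumab was compared with vehicle IgG within each class to ask whether V gene levels differ with treatment. In simulated counts with the spread of these data, edgeR recovered 0% of 4-fold changes in CD8 T cells. The share was 18% in other CD4 T cells and 24% in Treg cells. A count of 0 called therefore does not show that V gene levels were alike. By edgeR's quasi-likelihood test 0 of 80 V genes were called in CD8 T cells (all genes 0.00%), with 6 at an unadjusted p under 0.05 (all genes 4.54%) and 1 called by the Wald test of DESeq2 (all genes 0.258%). The count at an unadjusted p under 0.05 changed with the library left out, and each such fit kept only 1 library in a group. In other CD4 T cells 0 of 66 were called (all genes 0.00%), with 11 at an unadjusted p under 0.05 (all genes 2.94%) and 0 by DESeq2 (all genes 0.0931%). There too the count at an unadjusted p under 0.05 changed with the library left out. In Treg cells vehicle IgG entered the test as 1 library of 37 cells, which the fit assumes to vary like the others, and 0 of 56 were called (all genes 2.27%, of which 0.227% higher and 2.04% lower), with 15 at an unadjusted p under 0.05 (all genes 14.5%) and 0 by DESeq2 (all genes 2.04%). Without the filter on low counts 9 of 103 were called, or 8.74%, against 6.54% of all genes.

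The V gene that DESeq2 called in CD8 T cells was Trbv30. Its level was 16.3 and 48.2 CPM under vehicle IgG against 2.29 and 3.29 CPM under mavrilimumab, each by label (edgeR log2 difference -3.63, SE 0.63, adjusted p = 0.873), lower in 2 of 2 libraries. Its UMIs came from 1, 132, 5 and 9 CD8 T cells, so that the vehicle IgG level rests on the library labelled vehicle IgG 2. In other CD4 T cells Trbv16 was at 55.0 and 48.6 CPM against 120 and 123 CPM and Trbv3 at 67.9 and 44.0 CPM against 196 and 135 CPM, neither past the adjustment. Counted by cells with a called Trbv gene, both overlapped between the groups. Trbv16 had 2.06% and 5.77% under vehicle IgG, from 2 and 6 cells, against 5.86% and 5.13%. Trbv3 had 5.15% and 9.62%, from 5 and 10 cells, against 11.1% and 8.21%. In CD8 T cells 38 of 80 V genes (47.5%) were higher in both libraries labelled mavrilimumab than in both labelled vehicle IgG, against 23.6% of all genes. Trac, the alpha constant gene, showed the same order at 181 and 170 against 264 and 283 CPM (0.58, SE 0.18, edgeR adjusted p = 0.873), while Trbc1 and Trbc2 overlapped between the groups. CD8 T cells with other markers were 67 of 68 and 1027 of 2047 under vehicle IgG and 1125 of 1926 and 1756 of 1863 under mavrilimumab, by label. Their part in this count was not tested.

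Whether the difference between CD8 and other CD4 T cells depended on treatment was tested with an interaction term, and 0 of 85 V genes were called by edgeR, with 19 at an unadjusted p under 0.05 (all genes 4.78%) and 0 by DESeq2 (all genes 0.00717%). Without mavrilimumab 1 there were 7 calls (all genes 1.37%), without mavrilimumab 2 there were 10 (all genes 0.987%), each with a mavrilimumab arm of 1 library per class that is assumed to vary like the others, and without the filter on low counts 11 (all genes 0.635%). Over all 13940 genes 3 were called, all lower (0.0215%).

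Diversity of V genes was expressed as an effective number, the count of equally used segments that would give the same chance that 2 cells share a segment. It corrects for the number of cells and can exceed the segments seen. For Trbv in CD8 T cells it was 21.0 and 17.4 under vehicle IgG and 14.5 and 16.4 under mavrilimumab, in label order. The groups did not overlap, with means of 19.2 ± 2.54 and 15.4 ± 1.37 (SD, n = 2 each; two-sided exact permutation p = 0.33, which no pair of such groups can go below). For Trav, with near-identical copies joined, it was 32.2 and 23.4 against 21.3 and 26.1 (exact permutation p = 0.667), and the groups overlapped. The value of the library labelled vehicle IgG 1 rests on 65 cells for Trbv and 48 for Trav.

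Contigs of the same cells were set beside the expression UMIs to see how far a V gene count stands for a receptor. Agreement was counted only in cells that had a contig and 1 gene of that chain with the most UMIs. That Trbv gene was the gene of a productive contig in 93.3%, 95% and 95% of these cells. The order is expression libraries vehicle IgG 1, mavrilimumab 1 and mavrilimumab 2, and for Trav the shares were 72.9%, 80.5% and 79.1%. For Trav this covered 3088 of 4580 cells with an alpha contig in mavrilimumab 1 and 1870 of 2332 in mavrilimumab 2. Over the 3 libraries together, 60.4% of 6015 cells with 1 alpha contig had a UMI of its own Trav symbol. For beta it was 91.4% of 7043 cells. Much of the Trbv disagreement fell on 1 name. Of 298 cells whose only beta contig was named TRBV10, 0 had a Trbv10 UMI and 80.2% had a Trbv4 UMI. With Trbv4 counted for TRBV10 the Trbv share was 97.8%, 97.6% and 98.6%. Trbv4 was found in at most 2.60% of the cells of any other beta contig name.
TRBV10: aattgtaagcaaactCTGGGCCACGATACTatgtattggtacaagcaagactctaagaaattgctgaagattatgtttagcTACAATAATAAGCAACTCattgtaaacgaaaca
The stretch above is the CDR1 to CDR2 part of these contigs, with the loops in capitals. Which of both names is right for it was not tested.

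Trbv genes were read in nearly every cell that had their contig, and many Trav copies in none. Of 22 beta contig names, 20 had a UMI of their own symbol in at least 90% of cells. The remaining names were TRBV10 and TRBV5, at 61.6% of 448 cells. Of 70 alpha contig names with at least 20 cells, 36 reached 90% and 18 were under 10%. Among the 32 alpha names marked D or N, 17 were under 10% and 15 were at 0, against 1 and 0 of the 38 without D or N. Trav12d-3 had 0 of 208 cells, Trav6d-6 0 of 202, Trav3n-3 0 of 178 and Trav9n-3 2 of 193, each with contigs named for it. A Trav count of 0 was thus found for receptors that were read as contigs, and V shares among expression UMIs leave these receptors out.

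**Figure D4:**
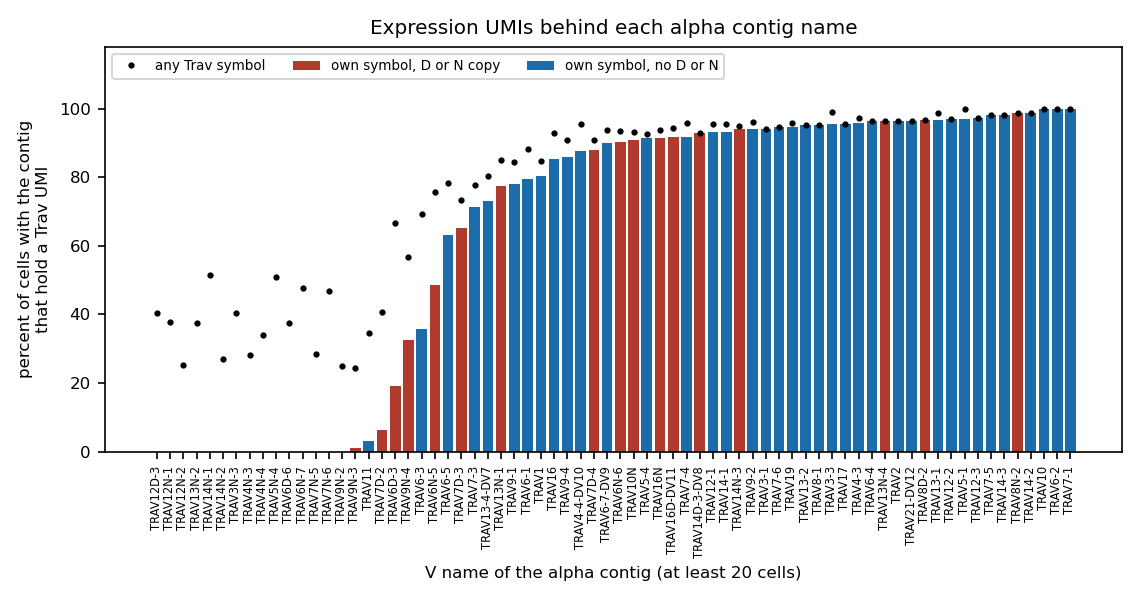
Percent of cells with 1 alpha contig of a given V name (horizontal, 70 names with at least 20 cells, 3 libraries together) that held a UMI of that Trav gene (bars, red for D or N copies and blue for others) or of any Trav gene (dots). Bars at 0 belong to 15 copies marked D or N, whose dots lie between 25.0% and 51.6%.

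Cells also differed in how many UMIs their V gene gave. In the library labelled mavrilimumab 2 the mean was 41.4 UMIs per cell for TRBV15, 40.3 for TRBV17 and 26.8 for TRBV1, against 7.0 for TRBV2 and 2.88 for TRBV5. In that labelled mavrilimumab 1 the same names had 14.0, 16.2, 11.2, 2.77 and 0.773. The order of 20 segments was nearly the same in both libraries (Spearman 0.976, Pearson 0.946, across segments, which share library chemistry and are not independent replicates). Trbv15, with 10.2% of the Trbv UMIs of CD8 T cells in the library labelled mavrilimumab 2, was the beta V gene of 4.55% of those cells by contig. A share of V UMIs is hence not a share of cells.

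Trbv13-2 UMIs also appeared in cells whose only beta contig was another V gene, most often TRBV13-3 and TRBV14, which follow it in the feature list. In the library labelled mavrilimumab 1 a Trbv13-2 UMI was found in 29.7% of TRBV13-3 cells, 35.0% of TRBV14 cells, 20.8% of TRBV15 cells and 12.2% of TRBV16 cells. It was found in 0.485% of TRBV12-2 cells, 3.72% of TRBV13-1 cells and 0.505% of TRBV29 cells. In that labelled mavrilimumab 2 the shares were 51.1%, 54.8%, 34.1% and 24.2% for TRBV13-3, TRBV14, TRBV15 and TRBV16, 2.54% to 10.9% for the names before Trbv13-2 and 4.38% for TRBV29. The share did not fall evenly along the list, since TRBV17 had 7.25% in mavrilimumab 1 but 36.1% in mavrilimumab 2. The UMIs were few per cell, with a mean of 0.392 in TRBV13-3 cells of the library labelled mavrilimumab 1, where Trbv13-3 itself had 6.83. The lower Trbv13-2 level in CD8 T cells includes such UMIs, and their part in it was not tested.

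**Figure D5:**
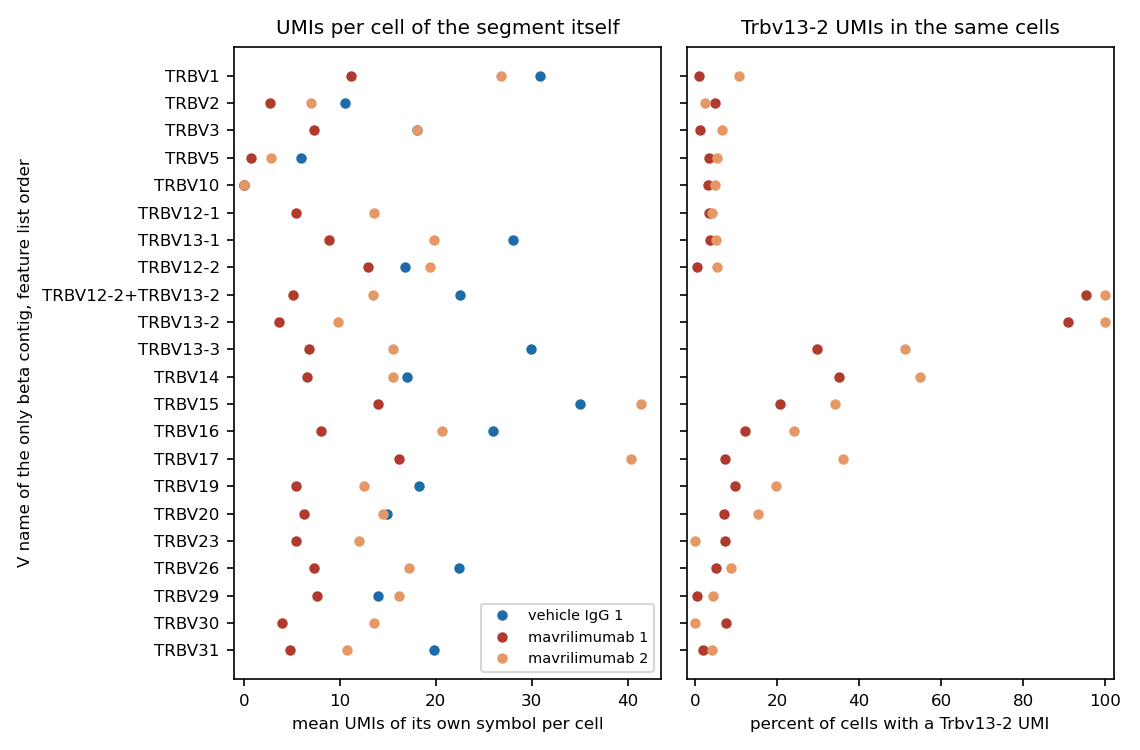
Left, mean UMIs of a segment's own symbol per cell with 1 beta contig of that name (3 libraries, at least 5 cells), and right, percent of those cells with a Trbv13-2 UMI (the libraries labelled mavrilimumab 1 and 2), with names in the order of the feature list. On the left TRBV15 and TRBV17 lie highest and TRBV5 and TRBV10 lowest, and on the right, beside the names that hold TRBV13-2 itself, TRBV14 and TRBV13-3 lie highest.

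A contig name that joins both segments, TRBV12-2+TRBV13-2, was carried by 700 contigs, against 89 named TRBV13-2 alone. Its coding sequence began with the leader of TRBV12-2, shown here by its first 60 bases with the start codon in capitals.
TRBV12-2: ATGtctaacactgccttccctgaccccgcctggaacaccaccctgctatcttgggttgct
TRBV12-2+TRBV13-2: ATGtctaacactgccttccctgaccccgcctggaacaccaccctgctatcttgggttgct
TRBV13-2: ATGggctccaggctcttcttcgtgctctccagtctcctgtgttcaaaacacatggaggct
Its CDR1 to CDR2 stretch, by contrast, was that of TRBV13-2 given earlier, with 0 differences in 114 bases, while TRBV12-2 and TRBV13-2 differ there at 58. Cells with this contig had a Trbv13-2 UMI in 96.7% and a Trbv12-2 UMI in 42.4%, against 32.5% for Trbv12-2 in the 77 cells with TRBV13-2 alone. Trbv12-2 UMIs thus came in part from cells whose receptor was counted here as Trbv13-2. They were also found in 18.5% of TRBV13-3 cells, 18.2% of TRBV14 cells and 13.8% of TRBV15 cells. For the names before Trbv12-2 in the feature list the share was 1.34% to 3.09%. The part of such UMIs in the Trbv12-2 level of CD8 T cells was not tested.

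Cells with at least 2 UMIs of each of 2 segments were counted next, since both alpha alleles commonly rearrange whereas beta is mostly held to 1 allele. Such cells were 20.9%, 1.35%, 10.2% and 20.5% of T cells for Trav, with copies joined, and 29.8%, 2.31%, 10.5% and 21.4% for Trbv, in the order vehicle IgG 1 and 2 and mavrilimumab 1 and 2. The share for Trbv was above that for Trav in 4 of 4 libraries, by a mean of 2.77 percentage points ± 4.12 (SD, n = 4; two-sided exact sign-flip permutation p = 0.13, the lowest that 4 libraries can give). Most of this mean came from the library labelled vehicle IgG 1, with 29.8% against 20.9%. Among cells with a called segment the order turned in both libraries labelled mavrilimumab, with 14.6% for Trav against 11.7% for Trbv and 27.5% against 23.9%. Over all cells it turned in their CD8 T cells, with 11.6% against 11% and 24.5% against 24.2%. With at least 3 UMIs per segment it turned in the library labelled mavrilimumab 2, with 13.3% against 12.6%. Depth moved with these shares: the library labelled vehicle IgG 2, with the lowest, had a median of 1 Trbv UMI per T cell and that labelled vehicle IgG 1 had 15. Of cells with 2 Trbv segments and a beta contig, 8.70%, 25.1% and 15.1% had 2 productive beta contigs in vehicle IgG 1, mavrilimumab 1 and mavrilimumab 2, against 0%, 1.18% and 0.269% of the other cells. Trbv13-2 was 1 of both segments in 22.4%, 17.4%, 23.8% and 30.2% of cells with exactly 2. Trbv12-2 with Trbv13-2 was the commonest pair, with 4 of 58, 5 of 109, 38 of 520 and 47 of 556 such cells, tied with another pair in the library labelled vehicle IgG 2. Doublets were not removed, and their part in these shares was not tested.

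The largest clones were found in the library labelled mavrilimumab 1. The most frequent beta CDR3 of its CD8 T cells joined Trbv12-2 to TRBJ1-1 and was found in 156 of 1747 cells with a beta contig (8.93%), of which 151 carried the same alpha CDR3 of Trav16 and TRAJ57. Both CDR3 sequences are printed as those of the largest clone in any class of the 3 libraries, with the first and last codon in capitals.
Trbv12-2: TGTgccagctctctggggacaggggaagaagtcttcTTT
Trav16: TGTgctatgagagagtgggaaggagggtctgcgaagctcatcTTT
These were 156 of the 181 CD8 T cells with a Trbv12-2 contig there (86.2%), while Trbv12-2 UMIs were found in 327 CD8 T cells. By cells Trbv12-2 was the V gene of 10.4% and by distinct CDR3 of 2.34% of CD8 T cells in that library. In the library labelled mavrilimumab 2 the shares were alike, 8.35% of cells and 8.08% of distinct CDR3. There the most frequent CD8 beta CDR3 used Trbv15 and was found in 32 of 1737 cells, of which 19 shared an alpha CDR3 of Trav11 and TRAJ27.

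In Treg cells of the library labelled mavrilimumab 1 the largest clone joined Trbv16 to TRBJ2-4 in 56 of 706 cells (7.93%), all 56 with an alpha chain of Trav9n-3, and Trbv16 was carried by 18.0% of cells and 29 of 331 distinct CDR3. In other CD4 T cells of that library the largest clone used Trbv19, with 44 of the 169 cells that had a Trbv19 contig. Trav9n-3, with UMIs in 2 of 193 cells that had its contig, is thus nearly missing from the alpha counts. Distinct sequences were 51.5% of beta contig cells in CD8, 69.4% in other CD4 and 46.9% in Treg cells of that library, and 76.2%, 96.9% and 96.3% in that labelled mavrilimumab 2. In the library labelled vehicle IgG 1 they were 95.2%, 98.9% and 100% of 63, 92 and 13 cells. Shares of distinct sequences fall with the number of cells read, and no comparison between groups was made of them.

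Alpha genes of semi-invariant receptors were looked at by UMIs and, for Trav11, by contigs. Trav11, the alpha gene of invariant natural killer T cells, had a UMI in 0 of 235, 5 of 5028, 17 of 5490 and 9 of 2920 T cells. Contigs of Trav11 with any J segment were the only alpha contig of 162 cells, of which 3.09% had a Trav11 UMI, so that these UMI counts set no limit on how many cells used the gene. Trav1, the alpha gene of mucosal-associated invariant T cells, had a UMI in 1.70%, 1.37%, 0.965% and 1.44% of T cells. Zbtb16, a transcription factor of such innate-like T cells, was found in 16 of 69 Trav1 cells under the label vehicle IgG 2 and in 13 of 42 under mavrilimumab 2, but in 4 of 53 under the label mavrilimumab 1 and 0 of 4 under vehicle IgG 1. In T cells without a Trav1 UMI the share was 9.32%, 5.94%, 2.87% and 17.3% in the same order, and no test was made.

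Other genes of the receptor complex were tested beside the V genes. Of 19 listed constant, signaling, recombination and gamma-delta genes 16 were tested, of which 2 were higher (all genes 4.89%) and 3 lower (all genes 4.84%) in CD8 than in other CD4 T cells. The constant genes Trac (log2 difference 0.02, SE 0.12), Trbc1 (-0.25, SE 0.11) and Trbc2 (-0.02, SE 0.09) did not pass. Trgc2, a gamma chain constant gene, rose by 4.14 (SE 0.41, edgeR adjusted p = 5.51e-05), at 20.7, 38.4, 72.7 and 49.5 CPM against 4.67, 11.1, 2.49 and 1.40 CPM, and Trgc4 rose by 1.74 with 1 library of 4 in the other direction. Trat1, a transmembrane adaptor of the receptor, fell by 2.82 on the log2 scale (edgeR adjusted p = 2.83e-05), Cd247, the zeta chain, fell by 0.71 and Lcp2, an adaptor, fell by 0.31. Against other CD4 T cells, Treg cells had 0 higher (all genes 3.09%) and 3 lower (all genes 2.32%), among them Cd247 and Trbc1. Against CD8 T cells 1 was higher (Trat1; all genes 7.66%) and 6 were lower (all genes 7.34%). Between mavrilimumab and vehicle IgG 0 were called by edgeR in any of the 3 classes.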

How the data were processed

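Single-cell gene expression was deposited for 4 libraries and receptor contigs were read for 3. The authors deposited unfiltered counts of UMIs per gene and barcode, and per the file headers Cell Ranger 9.0.1 made them, whereas the submitters' processing notes name Cell Ranger 7 and 7.1.0, Scanpy 1.8.2 and mm10. The build behind the matrices is unknown and coordinates were left out, and the aligner settings are not given in the sources used here. The deposited receptor files hold contig sequences with counts of UMIs and reads per contig. Productive, high confidence contigs of called cells were joined by barcode to the expression library that shared most barcodes.

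Cells were gated as described, doublets were not called, and a class with under 20 cells in a library was left out. Cells that met the CD8 gate and had a Foxp3 UMI (34 and 14 in the libraries labelled mavrilimumab 1 and 2) entered no class. Cells with Cd4, Foxp3 and at least 2 CD8 UMIs stayed among Treg cells. They numbered 1, 0, 31 and 5 in vehicle IgG 1 and 2 and mavrilimumab 1 and 2. Without CD8-positive cells in both CD4 classes, 18 V genes in place of 22 were called for Treg against CD8 (all genes 14.3%). For Treg against other CD4 it was 4 in place of 6 (all genes 5.29%). For CD8 against other CD4 it was 23 in place of 24 (all genes 9.39%). UMIs were summed per library and class and tested in edgeR 4.0.16 by quasi-likelihood (R 4.3.3, TMM, filterByExpr), with library as a block between classes, at a Benjamini-Hochberg adjusted p of 0.05 over all genes. Each SE is the log2 difference over the root of F. DESeq2 1.42.0 was an alternative. Python 3.11.15, numpy 2.4.6, pandas 2.3.3 and scipy 1.17.1 did the rest. Intervals are exact (Clopper-Pearson, 95%) and cover counting error only, as does the limit of 3 counts for a count of 0. The test was tested on simulated counts with the spread estimated from these data and 200 genes changed 2-fold or 4-fold. Between groups it recovered 0% of 2-fold and 0% of 4-fold changes in CD8 T cells. In other CD4 T cells it recovered 1% and 18%, and in Treg cells 1% and 24%. Between CD8 and other CD4 T cells it recovered 60% and 85%, with 20 false calls.

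Named genes were the 6 leading Trbv and Trav genes by mean share, up to 6 higher and 6 lower calls per comparison by size, the leader of each library and class, Trav11, Trav1 and the listed receptor genes. Other V genes, among them Trbv30, Trbv3, Trbv4, Trbv10 and those in the account of contigs, were chosen after their values were seen. The stretch shown for a V gene starts 15 bases before CDR1. The members and lists were chosen with earlier results of these data known. Some listed genes are not reported here by name.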

Additional observations from a re-analysis of the deposited data

How the results depend on the processing

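Between CD8 and other CD4 T cells 7 of 12 named V genes (Trav14-2, Trav16, Trbv12-1, Trbv12-2, Trbv20, Trbv26 and Trbv29) kept direction and call in all 13 settings tried. Between Treg and CD8 T cells 3 of 12 (Trbv12-2, Trbv14 and Trbv29) did so in 11 settings. Between Treg and other CD4 T cells 11 settings were tried, and 1 of 6 (Trav14n-3) did so in those in which it was tested. With Trav copies summed Trav14n-3 was merged into Trav14-3 and was not tested by itself. Over those genes and settings, where a gene was tested, 141, 42 and 104 values kept the call and 12, 21 and 24 kept only the direction (CD8 against other CD4, Treg against other CD4 and Treg against CD8). Without a filter on low counts, which tests more genes, the V genes called were 42 in place of 24 (CD8 against other CD4, all genes 9.60%), 13 in place of 6 (Treg against other CD4, all genes 4.72%), 31 in place of 22 (Treg against CD8, all genes 10.9%), 9 in place of 0 (mavrilimumab against vehicle IgG in Treg cells, 8.74% beside 6.54% of all genes) and 11 in place of 0 for the interaction (all genes 0.635%). The Wald test of DESeq2 called 2 (Treg against other CD4, all genes 2.86%) and 7 in place of 22 (Treg against CD8, all genes 8.97%), near the rate of all genes in both, and 1 (Trbv30, CD8 T cells between groups, all genes 0.258%). With cells that carry markers of another type left out, which removed the library labelled vehicle IgG 1, 1 V gene was called in CD8 T cells between groups (Trbv30, all genes 2.24%, with vehicle IgG 2 alone as the vehicle arm) and 3 in the interaction (all genes 0.185%); this was not run for Treg cells. The cause of these changes was not tested. With 1 library left out in turn the calls ranged from 20 to 23 (CD8 against other CD4, all genes 5.35% to 8.30%), 4 to 11 (Treg against other CD4, 11 without mavrilimumab 2, all genes 3.11% to 6.13%), 17 to 27 (Treg against CD8, all genes 8.02% to 15.7%), 0 to 10 for the interaction (7 without mavrilimumab 1 and 10 without mavrilimumab 2) and 0 to 0 between groups in CD8 and other CD4 T cells, where, as in the interaction, 1 arm is a single library assumed to vary like the other arm, so that the zeros say nothing about stability; in Treg cells between groups it was not run. The difference in effective number was -5.59 to -2.0 for Trbv and -8.53 to 0.317 for Trav, where only the fit without vehicle IgG 1 reversed the direction, and that of cells with 2 segments was -3.58 to -0.719 points. The Trav difference also reversed with UMIs in place of cells (4.68) and with other-marker cells left out (0.450, 3 libraries), and the difference of cells with 2 segments reversed over cells with a called segment (0.248). At a call of 2 UMIs the pooled Trbv agreement was 96.1% in place of 94.9%. Replicate numbers are shared by the groups, but the labels do not say that they pair samples, and with 2 pairs the deviations of same-numbered libraries correlated at 0.461 (CD8) and 0.191 (other CD4) over all genes but at -0.126 and -0.138 over the V genes. With the replicate block 0 V genes were called in either class, with 12 (15.0%, all genes 7.29%) and 11 (16.7%, all genes 3.84%) at an unadjusted p under 0.05. An alternative chosen after seeing the data left out cells with 2 Trbv segments and called 19 (CD8 against other CD4, all genes 9.35%), 4 (Treg against other CD4, all genes 4.42%) and 25 (Treg against CD8, all genes 14.8%). Depth limits the library labelled vehicle IgG 2 (median 2692 UMIs per CD8 T cell) and the number of cells limits that labelled vehicle IgG 1.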
